A study of Lactuca sativa with 6 samples.

Results

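Growth-regulating factors (GRFs) and their coactivators, the GRF-interacting factors (GIFs), were examined in young lettuce leaves that overexpressed *LsAP2*. The genes were taken as every row of the deposited expression table whose Swiss-Prot description names a growth-regulating factor or a GRF1-interacting factor, which gave 6 of the 2579 listed genes, 4 GRF genes and 2 GIF genes. The rule reads the description and no expression value, but the table itself holds only genes that the study had called as changed between the same libraries, so each listed gene had already passed a test of this contrast. Lettuce GRF and GIF genes outside the table were not analysed here. The names used below are those of the best Swiss-Prot match in Arabidopsis or rice and do not by themselves make a lettuce gene the ortholog of the gene named.

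The series compared 3 RNA-seq libraries of *LsAP2*-OE with 3 of wild type (WT), all from young leaves of 1-month-old lettuce (*Lactuca sativa*) of the cultivar S39. *LsAP2*-OE plants carry the coding sequence of *LsAP2*, an AP2-type transcription factor gene, behind the cauliflower mosaic virus 35S promoter in the vector pBI121, and WT plants are their comparison. The sources used here do not name the transgenic line that was sequenced, so a difference that belongs to a single insertion line cannot be told apart from one that belongs to the overexpression. The 35S promoter is active in most cell types of a leaf, and whole leaf tissue was sequenced.

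GRFs are plant transcription factors that bind DNA through a WRC domain and bind GIF proteins through a QLQ domain. GIFs are small coactivators that do not bind DNA themselves, meet GRFs through their SNH domain and, in Arabidopsis, bring SWI/SNF chromatin remodelling complexes to the target genes. In Arabidopsis, GRF and GIF proteins together keep cells of the young leaf dividing, and loss of GIF1, also known as ANGUSTIFOLIA3, gives narrow leaves with fewer cells. Transcripts of most Arabidopsis GRF genes are cleaved under the guidance of the microRNA miR396, which accumulates as leaf cells leave the cell cycle, whereas GIF transcripts carry no miR396 site there.

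Expression is given as the normalized value of the deposited table, whose kind of normalization is not stated, so values were compared between libraries for the same gene and not between genes. *LsAP2* (Lsat_1_v5_gn_3_89681) had values of 214, 209 and 224 in *LsAP2*-OE libraries and 25.3, 27.9 and 30.5 in WT libraries, a log2 fold change of 2.95 ± 0.08 (SE, limma adjusted p = 2.15e-08), so the overexpressed gene matched the labels in all 6 libraries. Values summed over the listed genes lay between 97790 and 112997 in the 6 libraries, and 15 to 33 genes per library were listed at 0. Libraries correlated across the listed genes at 0.986 to 0.990 within groups and at 0.733 to 0.745 between groups, on a table chosen for differing between them. WT replicate 1 stood apart in some genes. *LsTCP3* (Lsat_1_v5_gn_9_99020), which was picked out after its values were seen, had 0.813, 1.93 and 1.28 in *LsAP2*-OE libraries and 1.09, 31.8 and 32.3 in WT libraries, and the histone genes summed to 55216 there, whereas WT replicates 2 and 3 gave 41425 and 43241. Results for the GRF and GIF genes are therefore also given without WT replicate 1.

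All 4 GRF genes and both GIF genes were lower in *LsAP2*-OE leaves than in WT leaves, by 2.25- to 4.81-fold. In each of the 6 genes the highest *LsAP2*-OE library lay below the lowest WT library. Among all 2579 listed genes, 39.6% were called lower and 59.1% higher (limma, adjusted p below 0.01), and 39.7% had every *LsAP2*-OE library below every WT library. The median log2 fold change was −1.68 over the 6 genes, against 1.03 over all listed genes and −1.49 over the 1021 genes called lower. Because a gene entered the table only with a change of at least 2-fold, these counts describe the direction of the 6 genes. Neither their passing the test nor their lack of overlap adds to the selection. Lack of overlap in this direction was found for 1025 listed genes, beside 1021 called lower. In leaf tissue, fewer dividing cells and less RNA per cell cannot be told apart by these values.

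*GRF4* (Lsat_1_v5_gn_4_92941, described by its rice match) had the largest fold change of the 6 genes. In rice, GRF4 promotes growth and grain size, and it has been linked there to the activation of nitrogen uptake and assimilation genes. Its values were 2.87, 2.21 and 2.70 in *LsAP2*-OE libraries and 12.1, 12.5 and 12.8 in WT libraries. The groups were far apart, with the lowest WT library 4.22 times the highest *LsAP2*-OE library, and the 3 WT libraries varied by a coefficient of variation of only 2.71%. *LsAP2*-OE leaves held 20.8% of the WT mean, and the log2 fold change was −2.23 ± 0.12 (SE, limma adjusted p = 6.38e-07). Ordered by log2 fold change, *GRF4* stood at place 162 of the 2579 listed genes, counted from the lowest.

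*GRF2* (Lsat_1_v5_gn_3_133500, described by its Arabidopsis match) was the most variable of the 6 genes between replicates. Arabidopsis GRF2 acts redundantly with related GRFs in leaf and cotyledon growth. Its values were 3.21, 2.18 and 1.85 in *LsAP2*-OE libraries and 11.3, 6.79 and 8.09 in WT libraries. WT replicate 1 was the highest library, yet the lowest WT library still lay 2.12 times above the highest *LsAP2*-OE library. The mean was 2.41 ± 0.710 in *LsAP2*-OE leaves and 8.71 ± 2.29 in WT leaves (SD, n = 3 each), or 27.7% of WT. The log2 fold change was −1.82 ± 0.24 (SE, limma adjusted p = 0.000104), and without WT replicate 1 it was −1.62 (adjusted p = 0.000319).

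*GRF6* (Lsat_1_v5_gn_3_85521, described by its rice match) had small values in every library. Its description from another database, NR, is growth-regulating factor 1-like, so the descriptions disagree on which GRF it is. In rice, GRF6 has been described together with GRF10 as a regulator of floral organ development. Its values were 0.779, 0.708 and 0.685 in *LsAP2*-OE libraries and 2.33, 1.51 and 1.66 in WT libraries. The spread lay almost wholly within WT, where WT replicate 1 was again the highest library, with a coefficient of variation of 23.9% against 6.78% in *LsAP2*-OE. *LsAP2*-OE leaves held 39.5% of the WT mean, and the log2 fold change was −1.21 ± 0.21 (SE, limma adjusted p = 0.000567), or −1.03 without WT replicate 1 (adjusted p = 0.00167). Because the values are near the pseudocount of 0.1 that was added before taking logs, this fold change is understated, and with a pseudocount of 1 it was −0.71.

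*GRF1* (Lsat_1_v5_gn_4_159961, described by its Arabidopsis match) had close replicates and, with *GRF6*, one of the smaller fold changes. Arabidopsis GRF1 is a target of miR396, and its overexpression enlarges leaves there. Its values were 10.9, 10.3 and 11.2 in *LsAP2*-OE libraries and 23.5, 25.3 and 24.0 in WT libraries. Neither group varied by more than a few percent, with coefficients of variation of 4.21% in *LsAP2*-OE and 3.84% in WT. *LsAP2*-OE leaves held 44.4% of the WT mean, a log2 fold change of −1.16 ± 0.07 (SE, limma adjusted p = 1.12e-06). With all 6 libraries and a pseudocount of 0.1 this was the smallest change of the 6 genes, but *GRF6* changed less without WT replicate 1, at −1.03 against −1.19 for *GRF1*, and with a pseudocount of 1, at −0.71 against −1.10. *GRF1* lay close to the 2-fold limit for entering the table, and 91.4% of the genes called lower had a fold change as low as or lower than it.

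**Figure D1:**
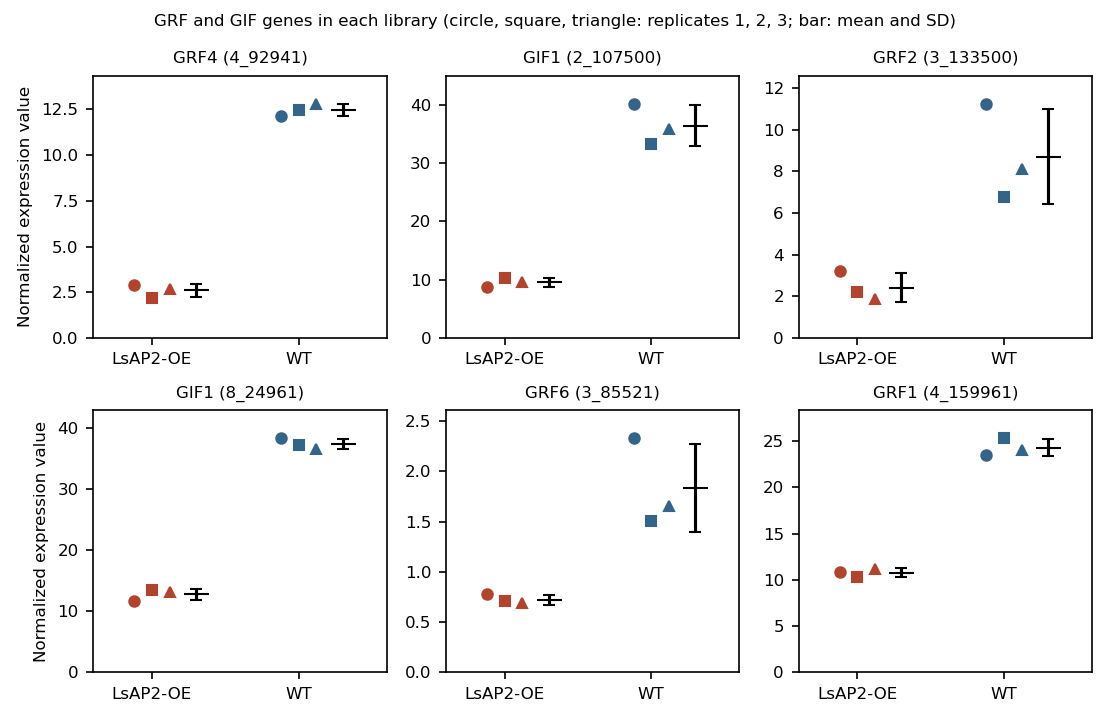
Normalized expression value (vertical axis, linear from 0) of each GRF and GIF gene in the 3 *LsAP2*-OE libraries (red) and the 3 WT libraries (blue), with the replicate shown by the symbol and the mean and SD drawn beside each group. In all 6 genes the 3 *LsAP2*-OE points lie below the 3 WT points, and WT replicate 1 (circle) is the highest point in 4 of them.

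Both GIF rows were described by the same Arabidopsis protein, GIF1, and were lower in *LsAP2*-OE. The first (Lsat_1_v5_gn_2_107500) had values of 8.77, 10.2 and 9.62 in *LsAP2*-OE libraries and 40.2, 33.2 and 35.9 in WT libraries. The groups were well separated, with the lowest WT library at 3.24 times the highest *LsAP2*-OE library. *LsAP2*-OE leaves held 26.2% of the WT mean, and the log2 fold change was −1.92 ± 0.10 (SE, limma adjusted p = 3.79e-07).

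The second *GIF1* row (Lsat_1_v5_gn_8_24961) had values of 11.7, 13.4 and 13.2 in *LsAP2*-OE libraries and 38.3, 37.2 and 36.5 in WT libraries. The WT libraries lay within a coefficient of variation of 2.35%, and each *LsAP2*-OE library fell to between 31.3% and 35.9% of the WT mean. The log2 fold change was −1.54 ± 0.08 (SE, limma adjusted p = 3.45e-07). The descriptions do not tell the 2 *GIF1* rows apart, and the sources used here do not say how reads matching both were counted, so the share of each row in the lower *GIF1* values is uncertain.

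Without WT replicate 1 all 6 genes were still called lower. The log2 fold changes were then −2.25 for *GRF4*, −1.19 for *GRF1*, −1.85 for *GIF1* (Lsat_1_v5_gn_2_107500) and −1.52 for *GIF1* (Lsat_1_v5_gn_8_24961), beside those of *GRF2* and *GRF6* given above. WT replicate 1 was the highest WT library for *GRF2*, *GRF6* and both *GIF1* rows and the lowest WT library for *GRF4* and *GRF1*.

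**Figure D2:**
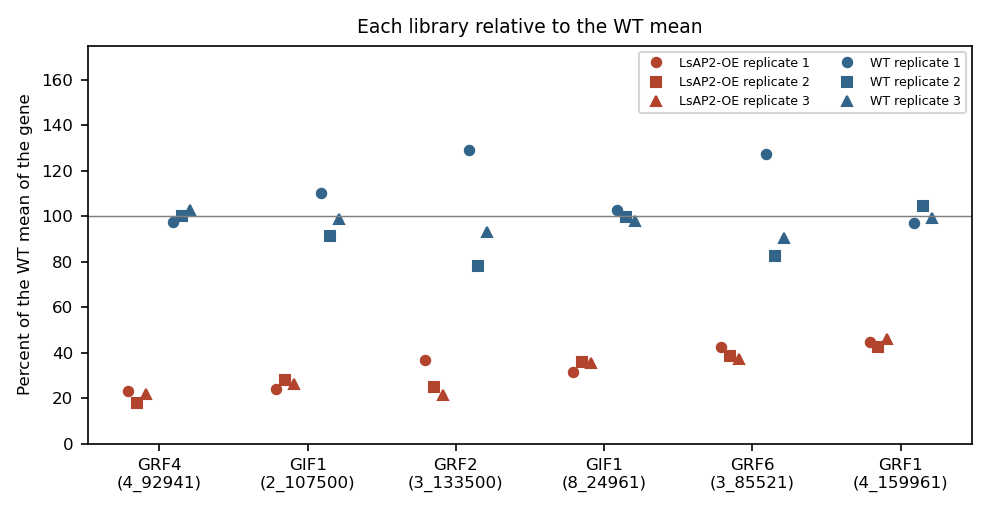
Each library as a percent of the WT mean of the same gene (vertical axis), with *LsAP2*-OE in red and WT in blue and the genes ordered from the largest to the smallest decrease. The *LsAP2*-OE libraries lie between 17.7% and 45.9% of the WT mean, and *GRF2* and *GRF6* show the widest WT spread.

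Whether the 6 genes fell by different amounts was asked within libraries, since the ratio of one gene to another in the same library does not depend on how that library was scaled. In 8 of the 15 pairs the 3 *LsAP2*-OE ratios did not overlap the 3 WT ratios. Each of these 8 reached p = 0.1 in a two-sided exact permutation test, the smallest value that 3 libraries against 3 can give, and 0.188 after Benjamini-Hochberg adjustment over the 15 pairs, so no pair could pass a threshold of 0.05. Pairs were written with the larger fold change first, which fixes the sign of the difference.

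The widest gap lay between *GRF4* and *GRF1*. The log2 ratio of *GRF4* to *GRF1* averaged −2.06 in *LsAP2*-OE libraries and −0.96 in WT libraries, a difference of −1.10 ± 0.09 (SE, exact permutation p = 0.1). Thus *GRF4* lost more of its WT level than *GRF1* in every *LsAP2*-OE library. *GRF4* also differed without overlap from *GRF6*, by −0.96 ± 0.23, and from *GIF1* (Lsat_1_v5_gn_8_24961), by −0.72 ± 0.17 (SE, exact permutation p = 0.1 each), although with a pseudocount of 1 the difference between *GRF4* and that *GIF1* row was −0.43. The ratios of *GRF4* to *GRF2*, with a difference of −0.41 ± 0.31, and to *GIF1* (Lsat_1_v5_gn_2_107500), with −0.34 ± 0.20, overlapped between the groups (SE, exact permutation p = 0.2 each).

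The 2 *GIF1* rows differed by a small amount with little spread. Their log2 ratio, Lsat_1_v5_gn_2_107500 to Lsat_1_v5_gn_8_24961, averaged −0.42 in *LsAP2*-OE libraries and −0.04 in WT libraries, a difference of −0.38 ± 0.07 (SE, exact permutation p = 0.1). The row Lsat_1_v5_gn_2_107500 also fell further than *GRF1*, by −0.76 ± 0.14, and than *GRF6*, by −0.62 ± 0.16, without overlap (SE, exact permutation p = 0.1 each), the second being −1.12 with a pseudocount of 1. The row Lsat_1_v5_gn_8_24961 fell further than *GRF1* by −0.38 ± 0.09 without overlap (SE, exact permutation p = 0.1). Its ratios to *GRF6* overlapped between the groups, with a difference of −0.24 ± 0.21 (SE, exact permutation p = 0.4). *GRF2* differed from *GRF6* without overlap, by −0.55 ± 0.18 (SE, exact permutation p = 0.1), and in both genes WT replicate 1 was the highest library. Its differences from *GRF1*, at −0.69 ± 0.34, and from the 2 *GIF1* rows, at −0.31 ± 0.36 and −0.07 ± 0.32, overlapped (SE, exact permutation p = 0.2, 0.4 and 0.9), and the sign of the difference between *GIF1* (Lsat_1_v5_gn_2_107500) and *GRF2* turned to 0.21 without *LsAP2*-OE replicate 1 and to 0.03 without WT replicate 2. *GRF6* and *GRF1*, the genes with the smallest changes, did not separate, at −0.14 ± 0.23 (SE, exact permutation p = 0.8), and without WT replicate 1 the difference was 0.07.

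**Figure D3:**
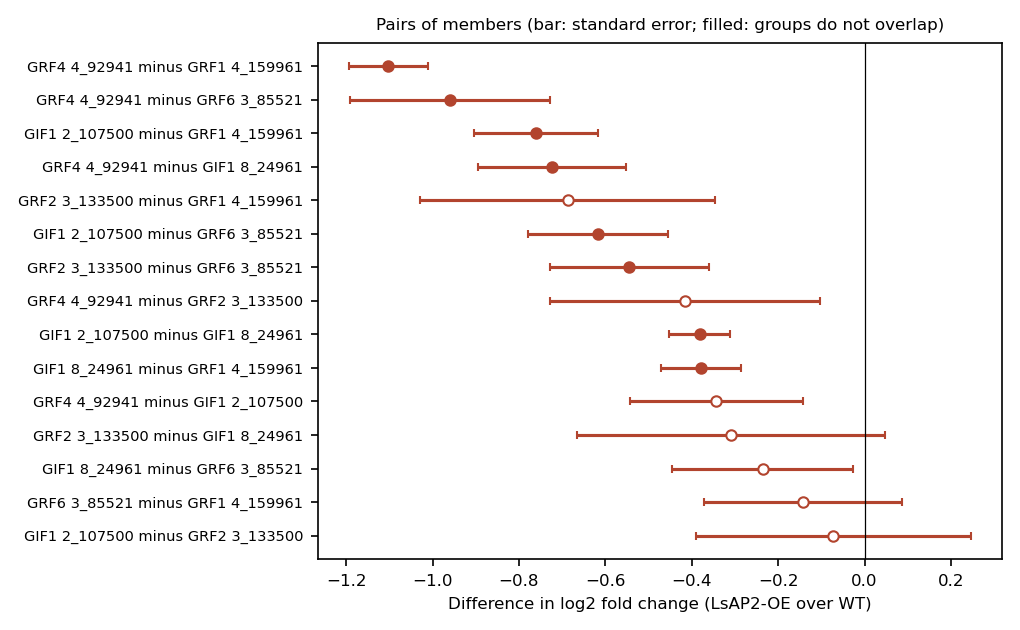
Difference in log2 fold change (*LsAP2*-OE over WT, horizontal axis) for each of the 15 pairs of GRF and GIF genes, from ratios within libraries, with bars of 1 SE. Filled points are the 8 pairs whose *LsAP2*-OE and WT ratios do not overlap, of which *GRF4* minus *GRF1* is the widest at −1.10.

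Genes with the most similar course over the 6 libraries were found by the root mean square (RMS) difference between centred log2 values, over the 1657 candidates that carry a Swiss-Prot description and average 1 or more. The nearest genes of *GRF1* were replication protein A 70 kDa subunit B (Lsat_1_v5_gn_1_14461, RMS difference 0.027), which coats single-stranded DNA, and the E2F-like factor *E2FE* (Lsat_1_v5_gn_5_17941, 0.0307), a repressor of endocycle genes in Arabidopsis. *E2FE* averaged 6.69 ± 0.263 in *LsAP2*-OE leaves and 15.5 ± 0.437 in WT leaves (SD, n = 3 each). The nearest genes of *GRF6* were a histone H2A variant (Lsat_1_v5_gn_8_94420, 0.0417) and the centromeric histone H3 *HTR12* (Lsat_1_v5_gn_2_63440, 0.0667), both with the same high WT replicate 1.

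The nearest genes of *GIF1* (Lsat_1_v5_gn_8_24961) were the chromatin protein HMG-Y-related protein A (Lsat_1_v5_gn_3_64520, RMS difference 0.0515) and an AGL8 homolog (Lsat_1_v5_gn_1_15321, 0.0591), a MADS-box factor. Those of *GIF1* (Lsat_1_v5_gn_2_107500) were inorganic pyrophosphatase 2 (Lsat_1_v5_gn_4_95701, 0.098) and a dUTPase (Lsat_1_v5_gn_8_78860, 0.103), which keeps uracil out of DNA. *GRF4* and *GRF2* had neighbours of other kinds, about as distant as those of that *GIF1* row for *GRF4* and more distant for *GRF2*. For *GRF4* they were the alcohol oxidase *FAO1* (Lsat_1_v5_gn_2_39940, 0.095) and the auxin-induced gene *ARG7* (Lsat_1_v5_gn_8_126421, 0.105), and for *GRF2* the CCAAT-binding subunit *NF-YC4* (Lsat_1_v5_gn_8_131281, 0.125) and a sterol acyltransferase (Lsat_1_v5_gn_7_13601, 0.143). With 2 groups of 3 libraries, nearness mostly reflects the size of the group difference.

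Few of the genes known to act beside GRFs and GIFs were listed. The only SWI/SNF component in the table, a homolog of *SNF12* (Lsat_1_v5_gn_6_17261), had values of 9.13, 7.33 and 7.44 in *LsAP2*-OE libraries and 23.5, 18.3 and 17.5 in WT libraries, a log2 fold change of −1.30 (limma adjusted p = 2.36e-05). WT replicate 1 was the highest library in this gene too, as it was for both *GIF1* rows. The only gene described as a TCP factor, *TCP20* (Lsat_1_v5_gn_2_94320), a class I TCP, had 2.40, 1.74 and 2.03 in *LsAP2*-OE libraries and 5.22, 5.09 and 4.91 in WT libraries, a log2 fold change of −1.27 (limma adjusted p = 5.40e-05). In Arabidopsis, the class II factor TCP4 activates miR396 genes. *LsTCP3*, of that class and described in the table as PCF5, was not called (limma adjusted p = 0.0327), and its WT libraries disagreed as given above.

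Of microRNA machinery the table held 2 genes, both lower, and neither is the argonaute that loads miR396. *AGO10* (Lsat_1_v5_gn_9_79920), which in Arabidopsis binds miR165 and miR166 in the shoot meristem, averaged 10.7 ± 0.545 in *LsAP2*-OE leaves and 23.7 ± 2.31 in WT leaves (SD, n = 3 each), a log2 fold change of −1.14 (limma adjusted p = 4.78e-06). A *Dicer homolog 2* gene (Lsat_1_v5_gn_0_14741), whose Arabidopsis counterpart makes small interfering RNAs from viral and other double-stranded RNA, had a log2 fold change of −1.56 (limma adjusted p = 0.00101). MicroRNAs themselves were not analysed here.

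A list of other leaf growth regulators, taken by words in the description, did not move in one direction as a whole. Of 7 listed genes, 3 were higher and 4 lower, with a median log2 fold change of −1.24. The higher genes were both rows described as *LONGIFOLIA 1* and *DA1-related 2*. The lower genes were *AIL5*, *JAGGED* (Lsat_1_v5_gn_8_41281, −2.12), *AIL1* (Lsat_1_v5_gn_1_38141, −1.37) and *cytochrome P450 78A3* (Lsat_1_v5_gn_1_16981, −1.24). *AIL5* (Lsat_1_v5_gn_7_53580), an AINTEGUMENTA-like factor, averaged 0.825 ± 0.0739 in *LsAP2*-OE leaves and 4.45 ± 0.496 in WT leaves (SD, n = 3 each), a log2 fold change of −2.30 (limma adjusted p = 2.80e-06), close to that of *GRF4*. *LONGIFOLIA 1* (Lsat_1_v5_gn_4_172021), which drives lengthwise leaf growth in Arabidopsis, went the other way, with 16.4 ± 0.875 in *LsAP2*-OE leaves and 1.37 ± 0.432 in WT leaves and a log2 fold change of 3.53 (limma adjusted p = 7.47e-07). One of the 3 higher genes, *DA1-related 2* (Lsat_1_v5_gn_8_14601, limma adjusted p = 0.00715), lost its call in 5 of the 6 fits that left out a library, with adjusted p values of up to 0.0285.

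Listed genes of nitrogen uptake and assimilation, tied to GRF4 in rice, were mostly higher while *GRF4* was lower. Of all listed genes 59.1% were called higher, and a link between *GRF4* and these genes was not tested. Of 14 listed nitrogen uptake and assimilation genes, 13 were called higher and 1 lower, with a median log2 fold change of 1.61, led by *ammonium transporter 1 member 2* (Lsat_1_v5_gn_2_15441), at 17.4 ± 1.68 in *LsAP2*-OE leaves and 1.20 ± 0.280 in WT leaves, and *nitrate reductase* (Lsat_1_v5_gn_8_106740), at 24.3 ± 1.11 in *LsAP2*-OE leaves and 2.10 ± 0.305 in WT leaves (SD, n = 3 each). Of the 13, 2 are folylpolyglutamate synthases that matched by their words only, and 1 of these (Lsat_1_v5_gn_8_126841) was not called without *LsAP2*-OE replicate 2 (limma adjusted p = 0.0116) or 3 (0.0104). DELLA proteins, the repressors of gibberellin signalling, act against GRF4 in rice. Of 2 listed DELLA and gibberellin genes both were called higher, but 1 makes gibberellin and the other represses its signalling. They were therefore not read as 1 process, and a relation to *GRF4* was not tested. The gibberellin-making *gibberellin 3-beta-dioxygenase 1* (Lsat_1_v5_gn_5_133201) had a log2 fold change of 2.04 (limma adjusted p = 0.000291). The DELLA gene *GAI1* (Lsat_1_v5_gn_3_55521), named here after its values were seen, averaged 0.972 in *LsAP2*-OE leaves and 0.430 in WT leaves, a log2 fold change of 1.00 (limma adjusted p = 0.00239), and left the count when a fold change of at least 2 or a mean of at least 1 was also asked, which left 1 gene higher.

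Most listed histone and DNA replication genes were lower together with the GRF and GIF genes, whereas mitosis and cell cycle genes were split. In the whole table, which holds only genes called as changed, 39.6% were called lower and 59.1% higher. All 78 listed histone genes were called lower, with a median log2 fold change of −1.54, and 14 of 15 DNA replication genes were lower, with a median of −1.29. The 1 higher gene was an RNA-directed DNA polymerase homolog, which matched by its words only. Among 12 mitosis and cell cycle genes, 7 were lower and 5 higher. Of the 5 higher genes, 4 encode inhibitors of cyclin-dependent kinases, with *cyclin-dependent kinase inhibitor 7* (Lsat_1_v5_gn_3_91021) at a log2 fold change of 1.86. Of these 4, 1 (Lactuca_sativa_newGene_2424, limma adjusted p = 0.00604) lost its call in 5 of the 6 fits that left out a library, with adjusted p values of up to 0.0222. The remaining higher gene was a cyclin, *Cyclin-U4-1* (Lactuca_sativa_newGene_694). It averaged 22.6 in *LsAP2*-OE leaves and 7.13 in WT leaves, a log2 fold change of 1.66 (limma adjusted p = 8.31e-07).

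**Figure D4:**
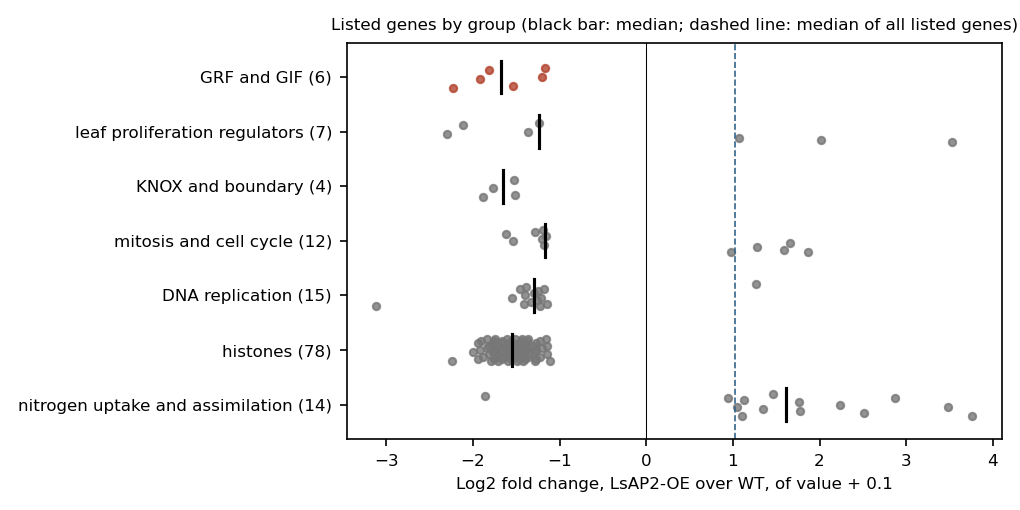
Log2 fold change of value + 0.1, *LsAP2*-OE over WT (horizontal axis), of each listed gene in the GRF and GIF family (red) and in 6 other groups (grey), with the number of genes in parentheses, a black bar at the median of each group and a dashed line at the median of all listed genes, 1.03. The 6 GRF and GIF genes lie between −2.23 and −1.16, on the side of the histone and DNA replication genes and opposite most nitrogen genes.

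Set against the median log2 value of the DNA replication list in the same library, the GRF and GIF genes fell into different positions. In every library that median was the value of a single gene, the DNA primase large subunit (Lsat_1_v5_gn_2_63520). The differences from it are therefore ratios to that gene, taken of value + 0.1, and do not describe the replication genes as a set. The median log2 value of the replication list changed by −1.21 between groups, and *GRF4* fell by a further 1.02 and *GIF1* (Lsat_1_v5_gn_2_107500) by a further 0.71, both without overlap (two-sided exact permutation p = 0.1 each, the smallest possible). *GRF1* and *GRF6* did not separate from that median, with differences of 0.05 and 0.01 (exact permutation p = 0.7 and 1). *GRF2*, at −0.60, and *GIF1* (Lsat_1_v5_gn_8_24961), at −0.33, overlapped (exact permutation p = 0.2 and 0.3). Against the histone genes, whose median changed by −1.58, *GRF4* and *GIF1* (Lsat_1_v5_gn_2_107500) were still lower, at −0.65 and −0.34, whereas *GRF1* and *GRF6* were higher in *LsAP2*-OE, at 0.41 and 0.37 (no overlap, exact permutation p = 0.1 each). For *GRF2*, at −0.24, and *GIF1* (Lsat_1_v5_gn_8_24961), at 0.04, the ratios to the histone median overlapped between the groups (exact permutation p = 0.3 and 0.6). These ratios were chosen after the data were seen. The pseudocount understates the fall of *GRF6* in them, because its values were small.

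Listed markers of other cell types and of leaf age also differed between the groups, in a table that holds only genes called as changed. Unchanged markers could not appear in it. Of all listed genes 59.1% were called higher and 39.6% lower, so these counts alone do not measure a change of makeup or age. The 4 KNOX and boundary genes of the table were all lower, and their summed values stayed at or below 14.1 in *LsAP2*-OE libraries and at or above 33.5 in WT libraries. Most of that sum came from *knotted-1-like 3* (Lsat_1_v5_gn_6_20120), with 8.65, 11.1 and 8.19 in *LsAP2*-OE libraries and 32.0, 20.9 and 27.8 in WT libraries, whose Arabidopsis counterpart is a class II KNOX gene of differentiating tissue and no meristem marker. The other 3 genes are organ boundary genes. *CUC2* (Lsat_1_v5_gn_7_104460) and *CUC3* (Lsat_1_v5_gn_9_48560), among these 3, had log2 fold changes of −1.88 and −1.77 (limma adjusted p = 4.27e-06 and 1.91e-05), in the range of the GRF and GIF genes. All 5 listed senescence genes were higher and summed to 204 to 221 in *LsAP2*-OE libraries, against 88.1 to 106 in WT libraries. Most of this sum came from a row described as *YLS9* (Lsat_1_v5_gn_2_56001), with means of 185 in *LsAP2*-OE and 85.5 in WT. Of 15 xylem genes 14 were higher and 1 was not called, with sums of 70.8 to 73.4 in *LsAP2*-OE and 27.6 to 33.3 in WT. All 3 phloem genes were higher, with sums of 133 to 141 in *LsAP2*-OE and 61.6 to 70.1 in WT. The phloem sum was mostly that of *SUC2* (Lsat_1_v5_gn_1_6801), with means of 129 in *LsAP2*-OE and 61.4 in WT. Of 14 mesophyll genes, 6 were higher, all Rubisco small chain genes, and 8 were lower, all chlorophyll a-b binding genes. Their sums were 18000 to 20858 in *LsAP2*-OE and 8689 to 9770 in WT. Most of each sum came from Rubisco genes, such as Lsat_1_v5_gn_2_79481 with means of 8927 in *LsAP2*-OE and 4013 in WT. The sums therefore do not describe the 8 lower genes. No gene of these marker lists was listed at 0 in any library. The part of the makeup or the age of the leaves in the lower GRF and GIF values was not tested.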

How the data were processed

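The authors used HISAT2 to align clean Illumina NovaSeq reads to a lettuce genome and DESeq to call differential genes, both on the BMKCloud platform (fold change of at least 2 and FDR below 0.01). The sources used here give no versions, genome build or quantification. The deposited table holds, for the 2579 genes so called, a normalized expression signal per library whose unit is not named. It also holds the authors' FDR, log2 fold change and direction, which were not used. The low values shared no common step, so read depth and counting error are unknown.

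Because the values are not counts, limma 3.58.1 (R 4.3.3) replaced the DESeq of the study. It was fitted to log2(value + 0.1) with a mean-variance trend over all 2579 genes and all 6 libraries, tested on simulated data first, with Benjamini-Hochberg adjustment and calls at adjusted p below 0.01. Fold changes are on that scale and understate changes of low genes. Pairs of genes were compared by exact permutation of within-library log2 ratios without a pseudocount. Ratios to the list medians were taken of value + 0.1. Gene lists were taken by words in the Swiss-Prot description, which 1949 genes have. From each list up to 2 called genes with the largest change and a mean of at least 1 could be named, and not all of these were. For each GRF or GIF gene the 2 nearest profiles were named. Other genes were named after their values were seen, mainly where a call was lost or a list member did not match its list's name. The members and lists were chosen with earlier results of these data known. The study calls the libraries biological replicates but does not say what each was taken from, so p-values measure the spread between these libraries. Groups were taken from the labelled genotype. Alternatives varied the pseudocount, a low-value filter, the trend, a replicate block, scaling, thresholds and left-out libraries. Same-numbered libraries did not deviate together, so the numbers were not used as pairs.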

Additional observations from a re-analysis of the deposited data

How the results depend on the processing

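All 6 GRF and GIF genes were called lower under each of the alternatives run on the fit, and 4 of them are also found by the NR description, which names neither *GRF4* nor *GIF1* (Lsat_1_v5_gn_8_24961). The genes called lower over the table ranged between 891 and 1029 (1021 as reported) and those called higher between 1294 and 1546 (1525 as reported). Log2 fold changes ranged between −2.31 and −1.91 for *GRF4*, −2.03 and −1.50 for *GRF2* and −1.33 and −0.71 for *GRF6*. The difference between *GRF6* and *GRF1* turned sign with a pseudocount of 1 (0.40) and without WT replicate 1 (0.07). With a pseudocount of 1, differences from *GRF4* shrank to −0.81 for *GRF1*, −0.43 for *GIF1* (Lsat_1_v5_gn_8_24961) and −0.08 for *GIF1* (Lsat_1_v5_gn_2_107500), and differences from *GRF6* widened to −1.12 and −0.77 for *GIF1* (Lsat_1_v5_gn_2_107500 and Lsat_1_v5_gn_8_24961) and −0.80 for *GRF2*. Pairs without overlap numbered 8 to 11 when a library was left out. This count could not fall below 8, because ratios that do not overlap stay apart with fewer libraries, so it does not test the pairs. With the replicate number as a replicate block, 1018 genes were lower and 1520 higher, and all 6 members were lower. The correlations of same-numbered libraries were −0.014, −0.039 and 0.014, so the numbers do not pair the samples.

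The list medians of each library were an alternative reference chosen after seeing the data, the replication median being the DNA primase large subunit alone. Relative to these medians, *GRF1* was at 0.0495 (replication) and 0.41 (histones), and *GRF6* at 0.0075 and 0.37. *GIF1* (Lsat_1_v5_gn_8_24961) was at 0.0353 (histones). Each value is shifted up by construction, since both references fell too. The unknown depth and the table's restriction to called genes limit every count given.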
